A study of Mus musculus with 4 samples.

Results

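The 38 genes described here act in G2 and mitosis and comprise regulators of mitotic entry, partners of the anaphase-promoting complex, spindle checkpoint proteins, kinetochore and chromosomal passenger proteins, and factors of chromosome structure, the spindle and cytokinesis. They were found by gene symbol among the 48795 genes of the deposited count table, and all 38 were present and passed the filter on low counts. The motor kinesins named Kif are not among them, although Cenpe encodes a kinesin-type motor of the kinetochore. Expression was measured by RNA sequencing in macrophages differentiated from C57BL/6 mouse bone marrow over 5 days in 10% fetal bovine serum and M-CSF, a macrophage growth factor, at 50 ng/ml. Cells of both groups were transfected with siRNA at 50 nM and collected 48 h later, so the control libraries carry the transfection too. Control siRNA and siRNAs against IRF2, a transcription factor that binds interferon-responsive elements, were each represented by 2 libraries. The siRNA sequences were not used here. Nothing in the labels ties a replicate to its own culture or mouse, so each p-value reflects the spread between these libraries alone, and that spread may be technical. Paired values are given for replicate 1 and then replicate 2.

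Irf2 itself (chromosome 8, 46739732 to 46847458 on mm10) had 4758 and 4934 reads with control siRNA against 1482 and 1529 in the IRF2 siRNA libraries. Its log2 fold change was −1.49, standard error (SE) 0.11 (edgeR quasi-likelihood adjusted p = 0.00477). Depth ran from 26378584 to 32273565 reads counted in genes per library. All 10 macrophage markers, among them Csf1r, Adgre1 and Lyz2, were expressed, and none passed the edgeR test. One of them, Cd14, a co-receptor for lipopolysaccharide that was named after its values were seen, had 594.7 and 508.0 CPM (reads per 1000000 reads in genes, after TMM scaling) with control siRNA and 396.2 and 376.8 CPM with IRF2 siRNA. Its log2 fold change of −0.51 had an adjusted p = 0.131 in edgeR, 0.0319 in DESeq2, which called it, and 0.146 with limma-voom. Of the 13495 genes tested, 69 rose and 172 fell.

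Cells enter mitosis when cyclin A and cyclin B activate the kinase CDK1, which is helped by the kinases PLK1 and Aurora A and by the phosphatase CDC25C. Microtubules then attach at kinetochores, and the spindle checkpoint holds back the anaphase-promoting complex (APC/C), a ubiquitin ligase, until every chromosome is attached. Many of these genes are known to be transcribed periodically, with a peak in G2 and mitosis, through the MuvB complex with B-Myb and FOXM1, which binds the cell cycle genes homology region (CHR), together with NF-Y at CCAAT boxes. Macrophages in culture divide in response to M-CSF, so a bulk culture contains some cells in these phases.

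Transcripts of the 38 genes were about as abundant in both control libraries and less abundant in both IRF2 siRNA libraries. Their share of the reads counted in genes was 0.114% in the first control library and 0.119% in the second, against 0.0577 and 0.0596% after IRF2 knockdown. These shares rest on 33960, 38367, 15231 and 16039 reads. In CPM the sum was 1174.3 ± 6.65 with control siRNA and 581.9 ± 9.55 with IRF2 siRNA (SD, n = 2 each). Of the 38 genes, 28 fell and none rose (edgeR quasi-likelihood test with Benjamini-Hochberg adjusted p under 0.05), where 1.27% of all genes tested fell, 0.511% rose and 1.79% did either. The DESeq2 Wald test called 33 members lower, against 2.52% of genes with an adjusted p, and limma-voom called 25, against 1.18%. At an unadjusted p under 0.05 in edgeR 37 members fell, against 7.33% of all genes tested. No member rose under any of these rules. Both IRF2 siRNA libraries lay below both control libraries for 38 of 38 genes, against 19.4% of all genes tested. The median log2 fold change was −1.13, with single genes between −1.55 and −0.18, against −0.0015 over all genes tested. Leaving out IRF2 siRNA replicate 1 gave 22 members that fell against 1.21% of all genes tested, and leaving out replicate 2 gave 23 against 1.23%. Leaving out control replicate 1 gave 35 against 7.39%, and leaving out control replicate 2 gave 37 against 7.67%. Without the filter on low counts, which raises the genes tested to 23133, 6 of the 38 passed. The median was −1.07 without either control library, −1.12 without IRF2 siRNA replicate 1 and −1.13 without IRF2 siRNA replicate 2. In bulk RNA, fewer cells in these phases and less mRNA per cell cannot be told apart.

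**Figure D1:**
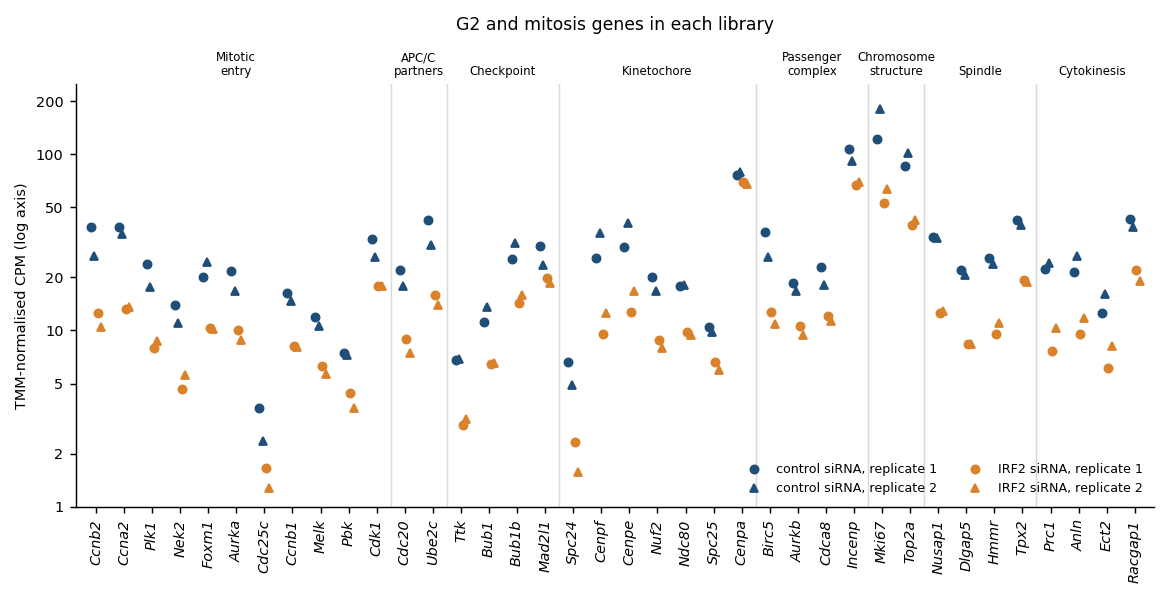
TMM-normalised CPM of the 38 genes in the 4 libraries, on a log axis, with genes grouped by role and ordered within a role by their log2 fold change. Blue symbols are control siRNA and orange symbols IRF2 siRNA, circles replicate 1 and triangles replicate 2; for every gene both orange symbols lie below both blue ones, with Cenpa and Mad2l1 closest together.

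The promoters of many of these genes hold motifs that were not themselves used to choose the genes. Many G2 and mitosis genes are known to be transcribed through these motifs, so the shares below are not an independent result. RefSeq promoter windows of the GRCm38.p6 assembly, which run from 250 bases before to 50 after the annotated start, matched 29 of the 38 genes. TTTGAA, the CHR motif, was searched on both strands and occurred in 20 of 29 genes (69.0%), against 14.5% of the 9795 tested genes with a window. CCAAT, the NF-Y motif, also searched on both strands, occurred in 22 of 29 (75.9%) against 42.9%, and 2 or more copies in a window occurred in 17 of 29 (58.6%) against 16.9%. In the first window listed for each gene, TTTGAA began within 50 bases of the start for 19 of 29 genes (65.5%), against 2.99% of tested genes. A pair of GAAA on one strand with any 2 bases between them, a core of the elements that IRF proteins bind and likewise searched on both strands, occurred in 2 of 29 (6.9%), Bub1b and Spc25, against 4.07% of tested genes. A TTTGAA overlapped a CCAAT in 1 member. In Spc25 the TTTGAA began at base 25 after the start and the GAAA pair at base 28, on the same strand. These matches share bases and are not separate elements. A match is a description of these letters, and no match says only that the letters are absent from the window.

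Both motifs occurred in 18 of 29 genes (62.1%), against 5.99% of tested genes. Cdca8, Ect2, Cdk1, Spc25 and Cenpa held both and did not pass. Nusap1, Birc5, Nuf2 and Melk fell with neither, and Mad2l1 held neither and did not pass. Whether the motifs go with the fall was not tested. Promoter stretches are shown for 6 of the genes that fell, those with the smallest p that hold both motifs. They were chosen to show the spacing of CCAAT boxes and the TTTGAA beside the start. Each runs 5′ to 3′ in the direction of the gene, in lower case, with each TTTGAA or CCAAT, or its reverse complement, in capitals.
Top2a (chr11:99024190-99024426, minus strand): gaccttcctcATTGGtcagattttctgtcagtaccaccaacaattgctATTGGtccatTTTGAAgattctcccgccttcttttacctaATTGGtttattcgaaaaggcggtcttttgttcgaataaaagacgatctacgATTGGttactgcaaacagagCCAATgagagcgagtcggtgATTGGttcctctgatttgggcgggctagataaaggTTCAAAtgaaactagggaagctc
Hmmr (chr11:40733421-40733619, minus strand): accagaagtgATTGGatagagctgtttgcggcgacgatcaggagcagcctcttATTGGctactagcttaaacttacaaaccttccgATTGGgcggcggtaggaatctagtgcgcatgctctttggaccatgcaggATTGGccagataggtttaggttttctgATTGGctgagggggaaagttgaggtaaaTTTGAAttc
Prc1 (chr7:80294404-80294454, plus strand): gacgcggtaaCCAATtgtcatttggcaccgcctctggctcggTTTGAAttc
Cdc20 (chr4:118437344-118437406, minus strand): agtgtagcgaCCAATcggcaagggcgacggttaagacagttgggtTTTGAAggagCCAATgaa
Racgap1 (chr15:99651643-99651678, minus strand): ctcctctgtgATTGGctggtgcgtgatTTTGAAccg
Ccnb2 (chr9:70421542-70421731, minus strand): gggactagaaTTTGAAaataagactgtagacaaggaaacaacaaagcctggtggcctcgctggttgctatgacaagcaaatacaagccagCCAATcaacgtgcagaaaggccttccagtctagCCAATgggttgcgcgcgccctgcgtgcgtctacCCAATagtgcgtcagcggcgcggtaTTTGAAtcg
The stretches of Top2a and Cdc20 end at the base before the RefSeq start, and those of Hmmr, Prc1, Racgap1 and Ccnb2 end 17, 4, 14 and 13 bases after it. Top2a holds 6 CCAAT boxes, Hmmr 5 and Ccnb2 3, while Prc1 and Racgap1 hold 1 each. Each of the 6 has a TTTGAA close to the end printed. For Hmmr, Prc1, Racgap1 and Ccnb2 that end was set 3 bases past the motif, so its closeness there follows from the cut. Top2a and Ccnb2 carry another TTTGAA further upstream.

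**Figure D2:**
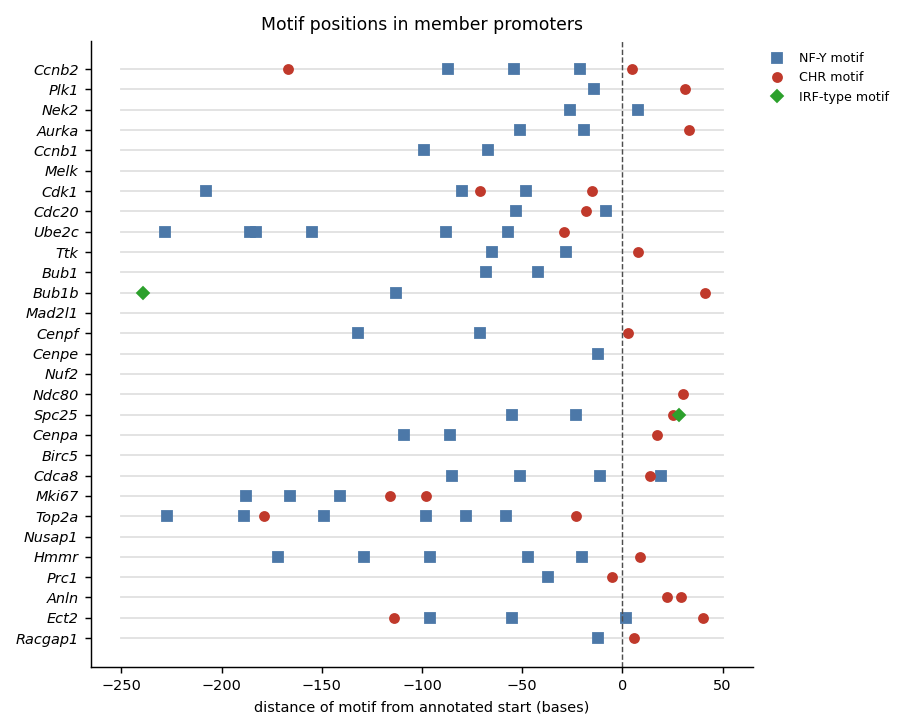
Distance in bases of each motif from the annotated start (dashed line) in the first RefSeq window of 29 members, drawn as grey lines. Red circles are the CHR motif, blue squares the NF-Y motif and green diamonds the IRF-type motif; the red circles gather within 50 bases of the start, with 19 of 29 genes having one there.

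Among the regulators of mitotic entry, 8 of 11 fell, none rose and the median log2 fold change was −1.03. Ccna2, which encodes cyclin A2 of S phase and mitotic entry, had 38.6 and 35.1 CPM in the control libraries and 13.3 and 13.6 CPM in the IRF2 siRNA libraries. It was 2.74-fold lower, with a log2 fold change of −1.46 (SE 0.13, edgeR adjusted p = 0.00632). Replicates were close together in both groups. Ccnb2, encoding cyclin B2, had 38.5 and 26.4 against 12.5 and 10.5 CPM, a log2 fold change of −1.49 (SE 0.21, edgeR adjusted p = 0.0202). Ccnb1, encoding cyclin B1, had 16.4 and 14.7 against 8.19 and 8.07 CPM, a log2 fold change of −0.93 (SE 0.14, edgeR adjusted p = 0.0278). Per kilobase of merged exon, Ccnb2 stood at 21.2 and Ccnb1 at 3.69 CPM per kilobase (RPKM) with control siRNA, and at 7.52 and 1.93 with IRF2 siRNA. Ccnb2 was the higher of the B-type cyclins per length in both groups, a difference that was not tested. Reads of processed copies were few: Ccnb1-ps had 1, 0, 0 and 3 reads and Ccnb2-ps 45, 44, 35 and 40 reads in control replicates 1 and 2 and IRF2 siRNA replicates 1 and 2. Reads that align to more than 1 place were not counted, so a loss from the genes to these copies cannot be measured.

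Cdk1, the kinase that the B-type cyclins activate, was among the entry genes that did not pass. It had 33.0 and 26.0 CPM with control siRNA and 17.9 CPM in both IRF2 siRNA libraries, a log2 fold change of −0.72 (SE 0.15, edgeR adjusted p = 0.0856). Its control libraries differed by more than its IRF2 siRNA libraries did. The DESeq2 Wald test called it lower (adjusted p = 0.0113). Its edgeR adjusted p was 0.00504 without control replicate 1 and 9.05e-08 without control replicate 2. Cdc25c, encoding the phosphatase that removes the inhibitory phosphates of CDK1, was the least abundant member, at 105 and 77 reads with control siRNA and 44 and 35 with IRF2 siRNA. Its log2 fold change was −1.01 (SE 0.30, edgeR adjusted p = 0.217, and 0.000187 without control replicate 2). Pbk, a mitotic kinase gene, had a log2 fold change of −0.86 (edgeR adjusted p = 0.0764). That p was 0.000892 without control replicate 1 and 0.000511 without control replicate 2. Each value without a control library, here and in later paragraphs, comes from a fit on a lone control library. In those fits far more of all genes tested fell, by the shares given above.

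Plk1, Aurka and Nek2, kinases of the centrosome and spindle poles, fell. Plk1 had 23.8 and 17.6 CPM against 8.0 and 8.66 CPM, a log2 fold change of −1.31 (SE 0.18, edgeR adjusted p = 0.0204). Aurka, encoding Aurora A, had 21.8 and 16.8 against 10.0 and 8.81 CPM, with −1.03 (SE 0.18, edgeR adjusted p = 0.041). Nek2 had 14.0 and 11.0 against 4.64 and 5.61 CPM, with −1.28 (edgeR adjusted p = 0.0248). In all 3 genes control replicate 1 was the highest library. Foxm1, the transcription factor of the G2 and mitosis programme, had 20.1 and 24.5 against 10.3 and 10.2 CPM, a log2 fold change of −1.12 (SE 0.15, edgeR adjusted p = 0.0181). Melk, a kinase gene of proliferating cells, had −0.91 (edgeR adjusted p = 0.0471) and was not called by limma-voom. Some of these calls needed both IRF2 siRNA libraries. When IRF2 siRNA replicate 1 was left out, the edgeR adjusted p was 0.0893 for Ccnb1 and 0.0907 for Melk. When replicate 2 was left out, it was 0.107 for Ccnb1, 0.25 for Melk and 0.0716 for Aurka.

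The partners of the APC/C both fell. Cdc20, which activates the complex and is the target of the spindle checkpoint, had 21.9 and 17.8 CPM with control siRNA and 8.95 and 7.45 CPM with IRF2 siRNA. Ube2c, the ubiquitin-conjugating enzyme that works with the complex, had 42.1 and 30.5 against 15.9 and 13.9 CPM. Both had a log2 fold change of −1.28, with standard errors of 0.17 and 0.19 and edgeR adjusted p-values of 0.0181 and 0.0222. The promoter stretch of Cdc20 printed above holds a TTTGAA between a pair of CCAAT boxes.

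Of the checkpoint genes, Ttk, Bub1 and Bub1b fell and Mad2l1 did not pass. Ttk, encoding the kinase MPS1 that starts the checkpoint signal, had 6.78 and 6.91 CPM against 2.91 and 3.16 CPM (log2 fold change −1.17, SE 0.17, edgeR adjusted p = 0.0234). Bub1 had 11.2 and 13.5 against 6.49 and 6.57 CPM, and Bub1b, which encodes BubR1, had 25.6 and 31.3 against 14.3 and 15.9 CPM. Their log2 fold changes were −0.92 and −0.91 (edgeR adjusted p-values 0.0472 and 0.0375, respectively). Mad2l1, encoding the MAD2 protein that binds CDC20, had 30 and 23.5 against 19.8 and 18.6 CPM, a log2 fold change of −0.48 (SE 0.16, edgeR adjusted p = 0.285). Its lower control library lay closer to the IRF2 siRNA libraries than to the other control, and its adjusted p was 0.000326 without control replicate 2. Without IRF2 siRNA replicate 1, the edgeR adjusted p was 0.0704 for Ttk, 0.136 for Bub1 and 0.134 for Bub1b, and without replicate 2 it was 0.123 for Bub1. Bub1 also missed the threshold with DESeq2 size factors and with limma-voom, and both Bub1 and Bub1b missed it when scaled by library size alone.

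Of 7 kinetochore genes, 5 fell, and this role had both the largest and the smallest change among the members. Cenpf, encoding a large outer kinetochore and microtubule-binding protein, had 25.7 and 35.7 CPM against 9.52 and 12.5 CPM, a log2 fold change of −1.48 (SE 0.21, edgeR adjusted p = 0.0217). Cenpe had 29.9 and 40.5 against 12.7 and 16.7 CPM, with −1.26 (SE 0.20, edgeR adjusted p = 0.0317). In both genes replicate 2 was the higher library of each group. Cenpa, the histone H3 variant that marks centromeres, had 76.3 and 79.3 CPM with control siRNA and 69.6 and 67.6 CPM with IRF2 siRNA, 1.13-fold lower. Its log2 fold change was −0.18 (SE 0.11, edgeR adjusted p = 0.69). The groups did not overlap, but Cenpa passed in none of the alternatives that were run.

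The NDC80 complex, which couples kinetochores to microtubules, is made of the products of Ndc80, Nuf2, Spc24 and Spc25. With control siRNA their levels per length were 2.76, 2.91, 2.23 and 3.15 RPKM in that order, and with IRF2 siRNA they were 1.48, 1.32, 0.762 and 1.97 RPKM. Nuf2 had 20.2 and 16.7 CPM against 8.80 and 7.93 CPM (log2 fold change −1.14, SE 0.16, edgeR adjusted p = 0.0204). Ndc80 had 17.9 and 18 against 9.86 and 9.39 CPM (log2 fold change −0.90, SE 0.13, edgeR adjusted p = 0.0248). Spc24 was the least abundant of the 4, with 191 and 160 reads against 62 and 43, and had the largest fall of all members, a log2 fold change of −1.55 (SE 0.26, edgeR adjusted p = 0.0406), which limma-voom did not call. Spc25 had 10.4 and 9.74 against 6.61 and 5.98 CPM and did not pass, with −0.67 (SE 0.15, edgeR adjusted p = 0.106). Whether the 4 genes differ in their change was not tested. The edgeR adjusted p of Ndc80 was 0.0872 without IRF2 siRNA replicate 1 and 0.147 without replicate 2. That of Spc25 was 0.00927 without control replicate 1 and 0.00197 without control replicate 2.

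The chromosomal passenger complex, in which Aurora B acts with INCENP, survivin and borealin to correct attachments and later to guide cytokinesis, had 1 of 4 genes that fell in edgeR and 4 of 4 in DESeq2. Birc5, encoding survivin, had 36.0 and 26.2 CPM against 12.8 and 10.9 CPM, 2.63-fold lower (log2 fold change −1.39, SE 0.19, edgeR adjusted p = 0.0184). Aurkb had 18.6 and 16.7 against 10.6 and 9.47 CPM, and Cdca8, encoding borealin, had 22.9 and 18.2 against 12.1 and 11.3 CPM. Both had a log2 fold change of −0.81 (edgeR adjusted p-values 0.0518 and 0.0696, respectively). Aurkb was therefore the member that came nearest to the threshold without passing. Incenp, the scaffold of the complex, had 106.5 and 91.6 against 67.0 and 69.4 CPM, with −0.54 (SE 0.12, edgeR adjusted p = 0.107). At 22.9 RPKM with control siRNA and 15.7 with IRF2 siRNA it was the highest member per length in both groups. When control replicate 1 was left out, the edgeR adjusted p was 0.0002 for Aurkb, 0.0013 for Cdca8 and 0.0146 for Incenp. When control replicate 2 was left out, it was 1.72e-06, 3.34e-08 and 1.64e-05 in the same order. These fits rest on a lone control library, and far more of all genes tested fell in them. In the DESeq2 Wald test the adjusted p was 0.00622 for Aurkb, 0.00624 for Cdca8 and 0.0318 for Incenp. Aurkb also passed in edgeR after a filter of 1 CPM in at least 2 libraries (adjusted p = 0.0447).

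Mki67 and Top2a, which act on chromosome structure, both fell. Mki67, which encodes the Ki-67 protein of the mitotic chromosome surface used as a marker of proliferation, had 122.5 and 180.7 CPM against 52.6 and 63.5 CPM. Its log2 fold change was −1.39 (SE 0.20, edgeR adjusted p = 0.0233). The control libraries were 0.56 apart on the log2 scale, and both were still above the higher IRF2 siRNA library. Top2a, the topoisomerase that untangles sister chromatids, had 85.9 and 101.8 against 39.9 and 42.2 CPM (log2 fold change −1.19, SE 0.13, edgeR adjusted p = 0.0112).

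All 4 spindle genes fell, and replicates lay close together. Nusap1, a microtubule-binding protein of the spindle, had 33.9 and 33.6 CPM with control siRNA and 12.6 and 12.9 CPM with IRF2 siRNA, 2.65-fold lower (log2 fold change −1.40, SE 0.12, edgeR adjusted p = 0.00632). Dlgap5, which encodes the spindle assembly factor HURP, had 22.0 and 20.7 against 8.34 and 8.40 CPM (log2 fold change −1.35, SE 0.14, edgeR adjusted p = 0.00841). Ccna2, Nusap1 and Dlgap5 were the 3 members with an adjusted p under 0.01, a threshold at which 0.178% of all genes tested fell. Tpx2, which activates Aurora A on the spindle, had 42.2 and 39.9 against 19.3 and 18.9 CPM, with −1.10. Hmmr, a spindle protein and hyaluronan receptor, had 25.9 and 23.9 against 9.59 and 11.0 CPM, with −1.27. Their edgeR adjusted p-values were 0.0112 and 0.0119.

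Of the cytokinesis genes, 3 of 4 fell. Prc1, which bundles the microtubules of the central spindle, had 22.2 and 24.1 CPM against 7.67 and 10.3 CPM (log2 fold change −1.36, SE 0.18, edgeR adjusted p = 0.0159). Anln, the cleavage furrow protein anillin, had 21.6 and 26.3 against 9.52 and 11.7 CPM, with −1.17 (edgeR adjusted p = 0.0231). Racgap1 and Ect2 encode a GTPase-activating protein and the exchange factor for RhoA that it recruits to the midzone. Racgap1 had 43.1 and 38.6 against 22.0 and 19.1 CPM, with −0.99 (edgeR adjusted p = 0.0196), which was 0.0747 without IRF2 siRNA replicate 2. Ect2 had 12.5 and 16.1 against 6.15 and 8.18 CPM and a log2 fold change of −1.0, of about the same size, with replicates further apart (SE 0.20, edgeR adjusted p = 0.0758). It passed without control replicate 1, without control replicate 2 and without IRF2 siRNA replicate 2 (edgeR adjusted p-values 3.82e-10, 0.000183 and 0.00927, respectively), and in the DESeq2 Wald test (adjusted p = 0.00339).

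**Figure D3:**
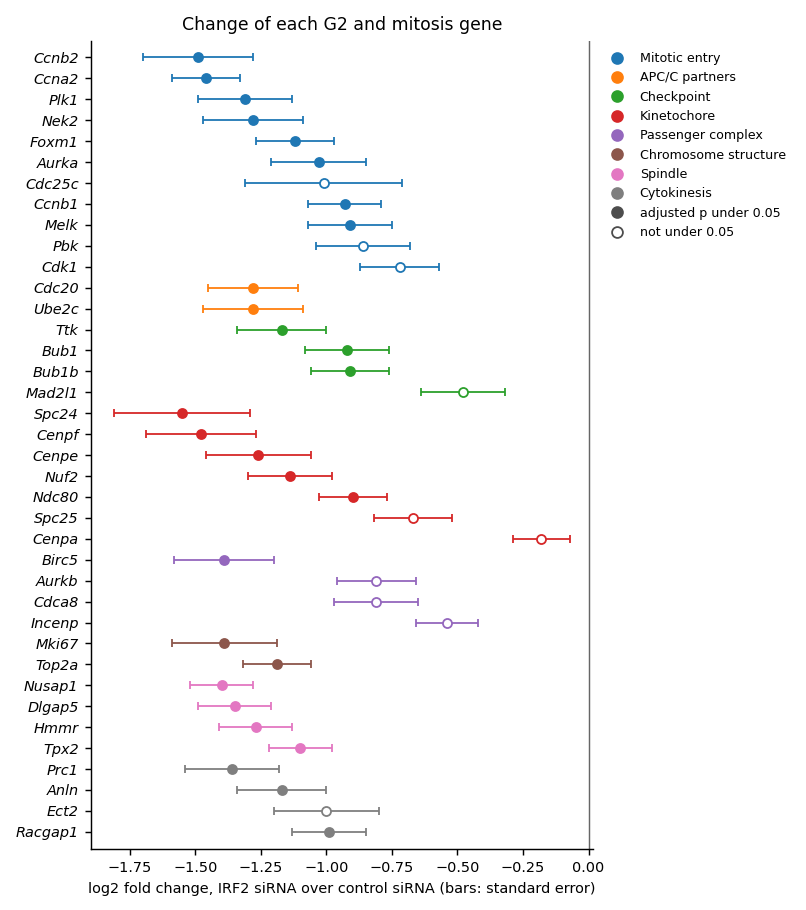
Log2 fold change of each member, IRF2 siRNA over control siRNA, with its standard error as a bar, coloured by role. Filled points passed an edgeR adjusted p under 0.05; all 38 points lie left of 0, and Cenpa, Mad2l1 and Incenp lie nearest to it.

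The genes fell at both low and high expression. Among the 19 members with the lower mean CPM, 13 fell, with a median log2 fold change of −1.01 and a median standard error of 0.17. Among the 19 with the higher mean CPM, 15 fell, with a median of −1.19 and a median standard error of 0.15. Exons of 11 members overlap those of another gene, and strand use in counting is not stated, so their values are uncertain. These are Ccna2, Foxm1, Plk1, Nek2, Cdc25c, Cdc20, Ube2c, Cdca8, Top2a, Prc1 and Nusap1.

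The summed level hid a shift between replicates. Control replicate 2 was higher than replicate 1 for 13 members and lower for 25, by log2 ratios from −0.61 to 0.56. Mki67 and Cenpf, which have the longest merged exons, were among those higher in replicate 2, and Ccnb2 and Spc24, which have short ones, among those lower. Across the 38 genes this ratio had a Spearman correlation of 0.59 with merged exon length, and the ratio of the IRF2 siRNA libraries, replicate 2 over 1, had one of 0.56. Over all genes tested the values were 0.47 (13460 genes) and 0.35 (13459 genes). The log2 fold change between groups had a correlation of 0.04 with exon length over the members and 0.05 over all genes tested. What sets the length relation was not tested, and these are descriptions across genes, which share the 4 libraries and are not independent replicates.

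**Figure D4:**
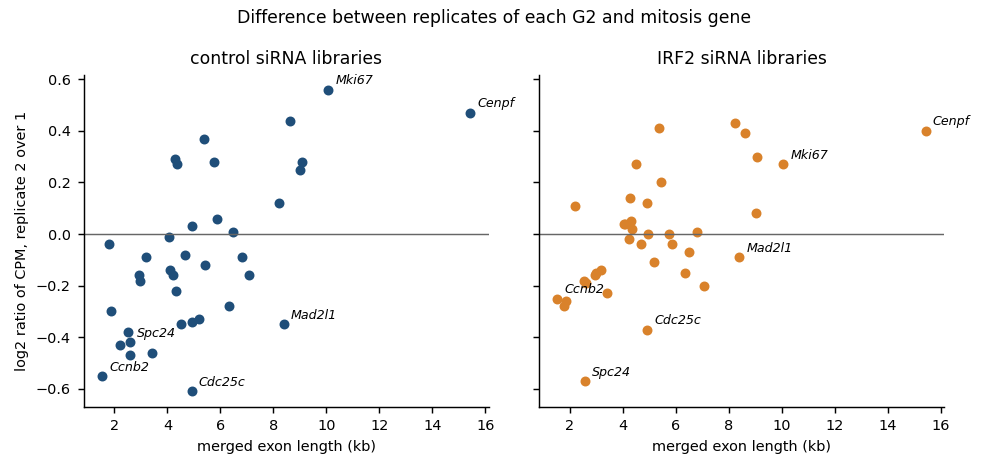
Log2 ratio of CPM in replicate 2 over replicate 1 for each member, within the control libraries (left) and within the IRF2 siRNA libraries (right), against merged exon length in kb. Points rise to the right in both panels, with Spearman correlations of 0.59 and 0.56 over the 38 genes.

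The wider set of G2 and mitosis genes was a list of 120 genes tested that holds none of the members. It was chosen with earlier results of these data known, so it is not independent support for the members. Of these, 17 fell, against 1.27% of all genes tested, and none rose, with a median log2 fold change of −0.43. None rose at an unadjusted p under 0.05, in DESeq2 or with limma-voom, and DESeq2 called 30 of them lower, against 2.52% of all genes with an adjusted p. Genes that act at spindle poles and microtubules accounted for 12 of the 17, out of 23 tested, with a median of −1.16. Ckap2l, Cep55 and Spag5, which act at the spindle or in abscission, had −1.31, −1.14 and −1.15 (edgeR adjusted p-values 0.0141, 0.0142 and 0.0142, respectively). Of the condensin subunits, 2 of 8 fell, Ncapd2 with −1.11 (edgeR adjusted p = 0.00965) and Ncaph with −0.77 (0.035). Of the entry regulators 2 of 13 fell, Ccnf, the substrate adaptor cyclin F, with −1.07 (edgeR adjusted p = 0.0181), and Pkmyt1, an inhibitory kinase of CDK1, with −1.23 (0.0217). Of the cohesion and separation genes 1 of 12 fell, Sgo2a, a shugoshin that protects centromeric cohesion, with −1.47 (edgeR adjusted p = 0.0326). With limma-voom Sgo2a missed the threshold (adjusted p = 0.0518) and no gene of this list was called, while DESeq2 called 3. In the fits without a control library far more of all genes tested fell, by the shares given above. Of the 120 genes 49 fell without control replicate 1 and 57 without control replicate 2, and 20 fell when either IRF2 siRNA library was left out. The edgeR adjusted p of Ncaph was 0.277 without IRF2 siRNA replicate 1 and 0.219 without replicate 2, and that of Pkmyt1 was 0.061 without replicate 2. Exons of Ckap2l, Ncapd2, Ccnf, Pkmyt1 and Sgo2a overlap those of another gene, as do those of Ska2 and Kif20a, so their values are uncertain.

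Other lists of the same machinery held no call. No gene passed among 18 centromere genes, with a median log2 fold change of −0.67, or among 17 outer kinetochore genes, with −0.42, in the edgeR test. At an unadjusted p under 0.05, 13 and 9 of them fell, against 7.33% of all genes tested. DESeq2 called 2 and 3 lower, against 2.52%, and limma-voom 0, against 1.18%. The smallest p among outer kinetochore genes belonged to Ska2, of a complex that tracks microtubules, with −0.91 (edgeR adjusted p = 0.0572, 0.0363 in DESeq2, 0.00148 without control replicate 1 and 7.21e-05 without control replicate 2). No subunit or regulator of the APC/C passed among 16, with a median of −0.05, while Cdc20 and Ube2c, placed among the members, fell. The list of 16 does not hold subunits alone. Fzr1, Ube2s and Fbxo5 are in it, named after their values were seen. They had −0.15, −0.46 and −0.76 (edgeR adjusted p-values 0.849, 0.456 and 0.196, respectively). Anapc5 had the smallest p of the 16, with −0.39 (edgeR adjusted p = 0.175). The genes of the DREAM, MuvB and NF-Y complexes, which bind the CHR and CCAAT motifs, had a median of −0.06, and none of 13 passed in edgeR. Of the APC/C list 2 and of the DREAM, MuvB and NF-Y list 1 fell at an unadjusted p under 0.05, where 7.33% of all genes tested did, and DESeq2 and limma-voom called 0 in both. Mybl2, encoding B-Myb, had −0.57 (edgeR adjusted p = 0.44). Rbl2, named after its values were seen, had 50.7 and 73.0 CPM with control siRNA and 61.7 and 73.0 CPM with IRF2 siRNA. The groups overlapped, and its log2 fold change was 0.12 (SE 0.19, edgeR adjusted p = 0.938). It was 0.41 in the fit without control replicate 2, its higher control library.

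Set beside the mitosis genes, mitotic kinesins had 9 of 12 that fell and a median of −1.20. DNA replication and S phase genes had 2 of 38 that fell and a median of −0.45, where 1.27% of all genes tested fell. At an unadjusted p under 0.05 in edgeR, 12 kinesins and 17 replication genes fell, against 7.33%. DESeq2 called 11 and 7 lower, against 2.52%, and limma-voom 8 and 2, against 1.18%. Both IRF2 siRNA libraries lay below both control libraries for 12 kinesins and 32 replication genes, against 19.4% of all genes tested. The kinesins with the smallest p were Kif23 and Kif20a, motors of cytokinesis, and Kif18b, which acts on microtubule ends, with log2 fold changes of −1.29, −1.21 and −1.35. The replication genes that fell were Mcm10, a replication initiation factor, with −1.31 (edgeR adjusted p = 0.0159), and Rrm2, a subunit of ribonucleotide reductase, with −0.95 (0.035, and 0.221 without IRF2 siRNA replicate 2). Members, the wider list, kinesins and replication genes together supplied 56 of the 172 genes that fell, or 32.6%. The 38 members supplied 28 of them, or 16.3%. Of the 13495 genes tested, these lists held 38, 120, 12 and 38 in the same order. Among 18 genes tested for inhibitors of cyclin-dependent kinases and targets of p53, 1 fell and none rose, with a median of −0.01. At an unadjusted p under 0.05, 5 of them fell, against 7.33% of all genes tested, and 1 rose. The share of all genes that rose at that p was not computed. DESeq2 called 2 lower, against 2.52% of genes with an adjusted p, and limma-voom 1, against 1.18%, and neither called a gene higher. The gene that fell was Cdkn2c, encoding the CDK4 and CDK6 inhibitor p18, with −0.88 (edgeR adjusted p = 0.0232, 0.0821 without IRF2 siRNA replicate 1 and 0.082 without replicate 2). Cdkn1a, encoding p21 and named after its values were seen, had 319.1 and 276.1 CPM against 373.2 and 351.4 CPM. Its log2 fold change was 0.28 (SE 0.12, edgeR adjusted p = 0.473). Also named after their values were seen, Pmaip1, Cdkn2d, Btg2 and Cdkn1c were lower at an unadjusted edgeR p under 0.05. Their log2 fold changes were −0.66, −0.41, −0.28 and −0.81. Plk3 was the gene higher at that p, with 0.47. None of these passed the adjusted threshold in edgeR.

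**Figure D5:**
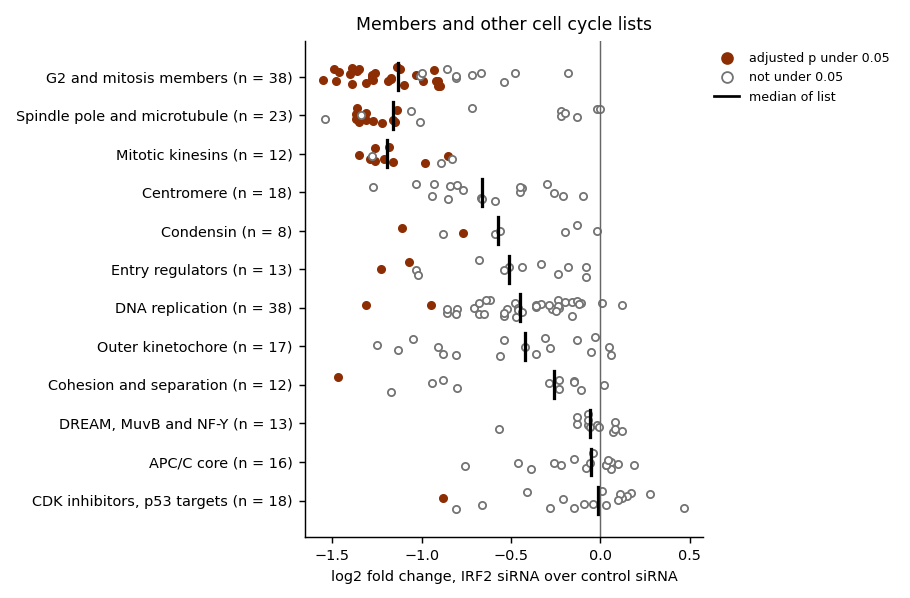
Log2 fold change, IRF2 siRNA over control siRNA, of each gene tested in the members and in 11 other lists, with the number tested in parentheses. Filled points passed an edgeR adjusted p under 0.05 and black lines are medians, at −1.13 for the members, −1.20 for kinesins, −0.45 for DNA replication genes and −0.01 for inhibitors and p53 targets.

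Markers of cells other than macrophages were low in all libraries. All 10 progenitor markers, among them Kit, Myb and Mpo, stayed under 1 CPM in every library, and they summed to 1.96 and 1.54 CPM with control siRNA and 1.17 and 1.25 CPM with IRF2 siRNA. Cd34 alone was tested, at 0.654 and 0.799 against 0.151 and 0.257 CPM (edgeR adjusted p = 0.168). Neutrophil markers summed to between 13.0 and 16.1 CPM and dendritic cell markers to between 1.77 and 2.24 CPM, with overlapping groups. Lymphocyte markers summed to at most 0.43 CPM, and mast cell, basophil and erythroid markers to 0.379 and 0.615 against 0.0755 and 0.147 CPM. Stromal and endothelial markers summed to between 40.7 and 46.9 CPM, most of it Pecam1, which macrophages also express. Mitochondrially encoded mRNAs were highest in control replicate 1, at 24902.9 and 20534.8 CPM in the control libraries against 18226.4 and 18454.8 CPM with IRF2 siRNA. In edgeR, DESeq2 or limma-voom 0 of 9 tested passed. At an unadjusted edgeR p under 0.05, 4 were lower, against 7.33% of all genes tested. Both IRF2 siRNA libraries lay below both control libraries for 7 of the 9, against 19.4% of all genes tested. Of the 9, mt-Atp6, mt-Co2 and mt-Co3 had at most 20 reads in any library. The part of the progenitor and mitochondrial differences in the fall of the mitosis genes was not tested.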

How the data were processed

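RNA was sequenced from 4 libraries of mouse macrophages, 2 with control siRNA and 2 with IRF2 siRNA. The deposited table holds the authors' raw read counts per Ensembl gene, made with bcl2fastq 2.18.0.12, STAR 2.5.2b and HTSeq 0.6.0 on mm10, per the submitters' processing notes, which also name DESeq2. Sources used here give neither the annotation release nor the strand setting. The 5 summary rows were left out of library sizes and tests. They include reads with no feature (5.07 to 6.85% of column totals), ambiguous reads (4.17 to 4.71%) and reads not aligned uniquely (12.5 to 15.0%). Symbols, coordinates and merged exon lengths came from GENCODE M21, and promoter sequences from RefSeq on GRCm38.p6.

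Genes were filtered with filterByExpr (minimum count 10, minimum total 15), scaled by TMM and tested with edgeR 4.0.16 (R 4.3.3) by the quasi-likelihood test, with Benjamini-Hochberg adjustment over the 13495 genes that passed. A call is an adjusted p under 0.05. The biological coefficient of variation was 12.6%. A standard error is the log2 fold change divided by the root of the F statistic. RPKM is TMM-scaled CPM per kilobase of merged exon. Motifs were read in the first listed window for distances and in any listed window for presence. The test was checked on simulated counts drawn independently for each library. These held neither the length relation nor the shared deviations of same-numbered libraries, so the check does not cover them. Replicates differed by more than counting noise in both groups (chi-square per degree of freedom 50.8 and 10.1). Alternatives were DESeq2 1.42.0, limma-voom (limma 3.58.1), other scalings, filters and thresholds, a replicate block and leaving out each library. All members were named. From each other cell cycle list the text names up to 3 called genes, in order of p, and the first in order where no gene was called. One gene under this rule is not reported here. Marker lists are given by counts and summed CPM, and markers named from them are examples outside the rule. DESeq2 gave no adjusted p for some genes, which were left out of its share. Members and lists were chosen with earlier results of these data known.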

Additional observations from a re-analysis of the deposited data

How the results depend on the processing

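All members had a negative log2 fold change under every alternative, with a median between −1.14 and −1.07, and no direction reversed for Irf2, the members or the genes named from the other cell cycle lists by rule. With no filter on low counts, 31 genes rose and 41 fell, of which 6 were members and 1 was of the wider list. At an adjusted p under 0.01, 26 rose and 24 fell, of which 3 were members and 1 was of the wider list. The DESeq2 Wald test called 120 higher and 307 lower, 33 of them members and 30 in the wider list, and limma-voom called 25 members. Leaving out 1 library at a time gave 62 to 710 genes that rose and 171 to 1060 that fell. Of the members 22 to 37 fell and 0 rose, and of the wider list 20 to 57 fell and 0 to 1 rose, the high ends coming without a control library. Of the 28 members that fell, 20 were called in each of these fits. A lone library is assumed there to vary like the other group. Same-numbered libraries deviated together (correlation 0.485), but with 2 pairs and no pairing in the labels they share only a number. With a replicate block, 503 genes rose and 1018 fell, 37 of them members and 58 of the wider list. The cause of these shifts was not tested. Depth limits Cdc25c and Spc24 most, which had at most 105 and 191 reads in any library.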
